A study of Mus musculus with 6 samples.

Results

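The genes encoding mitochondrial ribosomal proteins were taken by name: every protein-coding gene of the GENCODE M21 annotation in the expression table whose symbol begins with Mrps or Mrpl followed by a digit. They numbered 78 of 24191 genes, 29 named for the small subunit (Mrps) and 49 for the large subunit (Mrpl). PolyA RNA was sequenced from J1 mouse embryonic stem cells, in 3 libraries of cells with Mettl5 disrupted on both alleles (Mettl5 knockout, KO) and 3 libraries of wild-type (WT) cells. Both genotypes had been kept for 7 days in serum with LIF, the cytokine that holds mouse embryonic stem cells undifferentiated, and no other allele or treatment is named in the labels. The labels do not say how the allele was made, whether the knockout was a single clone, or that replicates were separate cultures. The p-values therefore cover no more than the spread among these samples, and that spread may be technical. The study asked how METTL5, which methylates the ribosomal RNA of the cytosolic small subunit, bears on pluripotency and development. It is not known to act on the mitochondrial ribosome.

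The mitochondrial ribosome translates the few messenger RNAs that are copied from mitochondrial DNA, all of which encode subunits of the respiratory chain and ATP synthase. Its ribosomal RNAs come from mitochondrial DNA, while all its proteins are encoded in the nucleus, made in the cytosol and imported. Some of these proteins descend from families shared with bacterial ribosomes and others are specific to mitochondria. Mouse embryonic stem cells use glycolysis as well as respiration and hold immature mitochondria.

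The libraries held an estimated 40460000, 59640000 and 58820000 fragments in KO and 52750000, 47620000 and 38560000 in WT cells. On the TPM scale, a length-corrected level explained with the processing, Mettl5 had 3.65, 3.58 and 3.32 in KO libraries and 50.3, 48.6 and 48.7 in WT libraries. Of 10 embryonic stem cell markers none was at 0 in any library. Their summed level was 4940 to 5380 in KO and 5420 to 5820 in WT libraries, and 7 were lower, 1 higher and 2 not called. Of 10 fibroblast markers, 9 were higher and 1 lower, with summed levels of 34.7 to 36.2 in KO and 14.6 to 17.2 in WT libraries, and Lum was at 0 in 1 WT library. By comparison, 33.6% of all genes tested were higher in the KO and 28.9% lower. The part of either marker list in the results that follow was not tested. In bulk RNA, fewer cells of a kind and less RNA per cell cannot be told apart.

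Many genes of mitochondrial ribosomal proteins start back to back with another gene. Either a short stretch of DNA lies between both transcription starts, or the first bases of the genes overlap. A neighbour on the other strand, starting within 1000 bases and running the other way, was found for 33 of the 78 genes (42.3%). This was so for 2287 of 17172 protein-coding genes tested (13.3%). In many of the 33 cases the annotated starts cross and the genes overlap, by up to 892 bases for Mrpl48 with Rab6a. The stretches below are shown because both genes of each pair were measured, and the size of the change differed between some partners and was alike in others. They come from RefSeq on GRCm38.p6, run 5′ to 3′ on the strand of the gene named first, and have capitals where the ETS motif CCGGAAG or its reverse complement occurs. Both genes of the first pair encode mitochondrial ribosomal proteins. In GENCODE M21 they overlap by 413 bases, while their RefSeq starts lie apart. The first stretch spans chr7:78783090-78783130 on the plus strand, 41 bases with 73.2% G and C. The second spans chr14:57826164-57826238 on the plus strand, the third chr4:49521084-49521175 on the minus strand, and the fourth chr13:99344679-99344785 on the plus strand.
Mrps11/Mrpl46: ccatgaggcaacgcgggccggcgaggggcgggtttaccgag
Mrpl57/Ska3: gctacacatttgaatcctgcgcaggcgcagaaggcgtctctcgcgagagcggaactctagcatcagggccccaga
Mrpl50/Zfp189: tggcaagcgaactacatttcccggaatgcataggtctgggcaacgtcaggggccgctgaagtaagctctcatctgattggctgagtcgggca
Mrps27/Ptcd2: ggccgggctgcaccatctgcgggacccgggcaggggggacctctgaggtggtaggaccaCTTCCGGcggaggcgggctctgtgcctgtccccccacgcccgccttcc

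The 100 bases before the RefSeq starts of Mrps21 and Mrps24 are shown as well, since these genes had the largest rise and the largest fall in which no copy elsewhere carried most of the reads. That of Mrps21 spans chr3:95871515-95871614 on the minus strand, with 65.0% G and C, and that of Mrps24 spans chr11:5707702-5707801 on the minus strand, with 73.0%.
Mrps21: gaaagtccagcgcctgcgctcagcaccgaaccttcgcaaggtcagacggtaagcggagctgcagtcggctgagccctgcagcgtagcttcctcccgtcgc
Mrps24: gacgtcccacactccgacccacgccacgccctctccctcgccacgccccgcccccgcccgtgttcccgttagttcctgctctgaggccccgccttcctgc

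RefSeq promoter windows, from 250 bases before to 50 after the start, were matched for 69 of the 78 genes and for 13107 protein-coding genes in all. Searched on both strands, the ETS motif CCGGAAG occurred in 25 of the 69 windows (36.2%) and in 15.0% of all windows. The YY1 motif AAGATGGCG occurred in 8 (11.6%), against 2.58% of all windows, and the NRF1 motif GCATGCGC in 8 (11.6%), against 4.6%. ETS factors, YY1 and NRF1 are transcription factors known for binding near the starts of mitochondrial and other housekeeping genes, and a match in a window is a description of its letters. The windows with a match were spread over genes that rose, fell and were not called. The ETS motif was in 9 of 26 windows of genes that rose, 6 of 22 of genes that fell and 10 of 21 of genes not called. The YY1 motif was in 3, 4 and 1 of these windows in the same order of classes, and the NRF1 motif in 3, 2 and 3.

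The 78 genes moved in both directions, by small amounts. All 78 passed the filter of a mean of at least 1 scaled read, the deposited read measure. In the KO 30 were higher (38.5%), 27 were lower (34.6%) and 21 were not called, with limma across all genes and a Benjamini-Hochberg adjusted p under 0.05. Of all 24183 genes tested, 33.6% were higher, 28.9% lower and 62.6% called in either direction. Of the 9498 protein-coding genes in the members' range of mean scaled reads, 48.5% were higher and 31.8% lower. The members' share of higher genes thus lay between both backgrounds and that of lower genes slightly above both. No difference between these shares was tested. Log2 fold changes, KO over WT, had a median of 0.052 and quartiles of -0.20 and 0.20, against a median of 0.0038 over all genes tested. Their median size without sign was 0.21, against 0.46 over all genes and 0.33 over the 9498 protein-coding genes in the same range of mean scaled reads. A change of at least 0.5 on the log2 scale was called for 13 of the 78 genes, while 39.4% of all genes had one. Of the 9498 protein-coding genes in the same range of reads, 3101 did.

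The split between higher and lower depended on how libraries were scaled. With libraries rescaled to equal totals, 17 of the genes were higher and 42 lower, and the median was -0.10. Higher genes thus made up 28.8% of the called ones, against 52.6% on the deposited scale. Over all genes tested these shares were 40.8% with equal totals and 53.8% on the deposited scale. That rescaling moved the median of all genes to -0.15, with 26.1% of them higher and 37.8% lower. All 27 lower calls held under it, and 17 of the 30 higher calls did.

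The KO and WT libraries did not overlap in scaled reads for 35 genes that were higher and 27 that were lower in the KO. Over all genes tested the shares were 35.8% and 32.1%, or 67.8% in either direction. All called genes were among these. The other 5, all higher and not called, were Mrpl30, Mrpl20, Mrpl34, Mrpl9 and Mrpl41. Mrpl30 was apart the other way on the TPM scale, at 138.4, 139.2 and 137.6 in KO and 142.1, 142.7 and 142.0 in WT libraries. With equal totals Mrpl30, Mrpl20 and Mrpl34 were called lower (-0.12, -0.094 and -0.092). On the TPM scale, 25 of the 30 genes called higher also did not overlap, and Mrpl40, Mrpl37, Mrpl42, Mrps36 and Mrps18c overlapped. All 27 genes called lower were below WT in every KO library on that scale too.

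**Figure D1:**
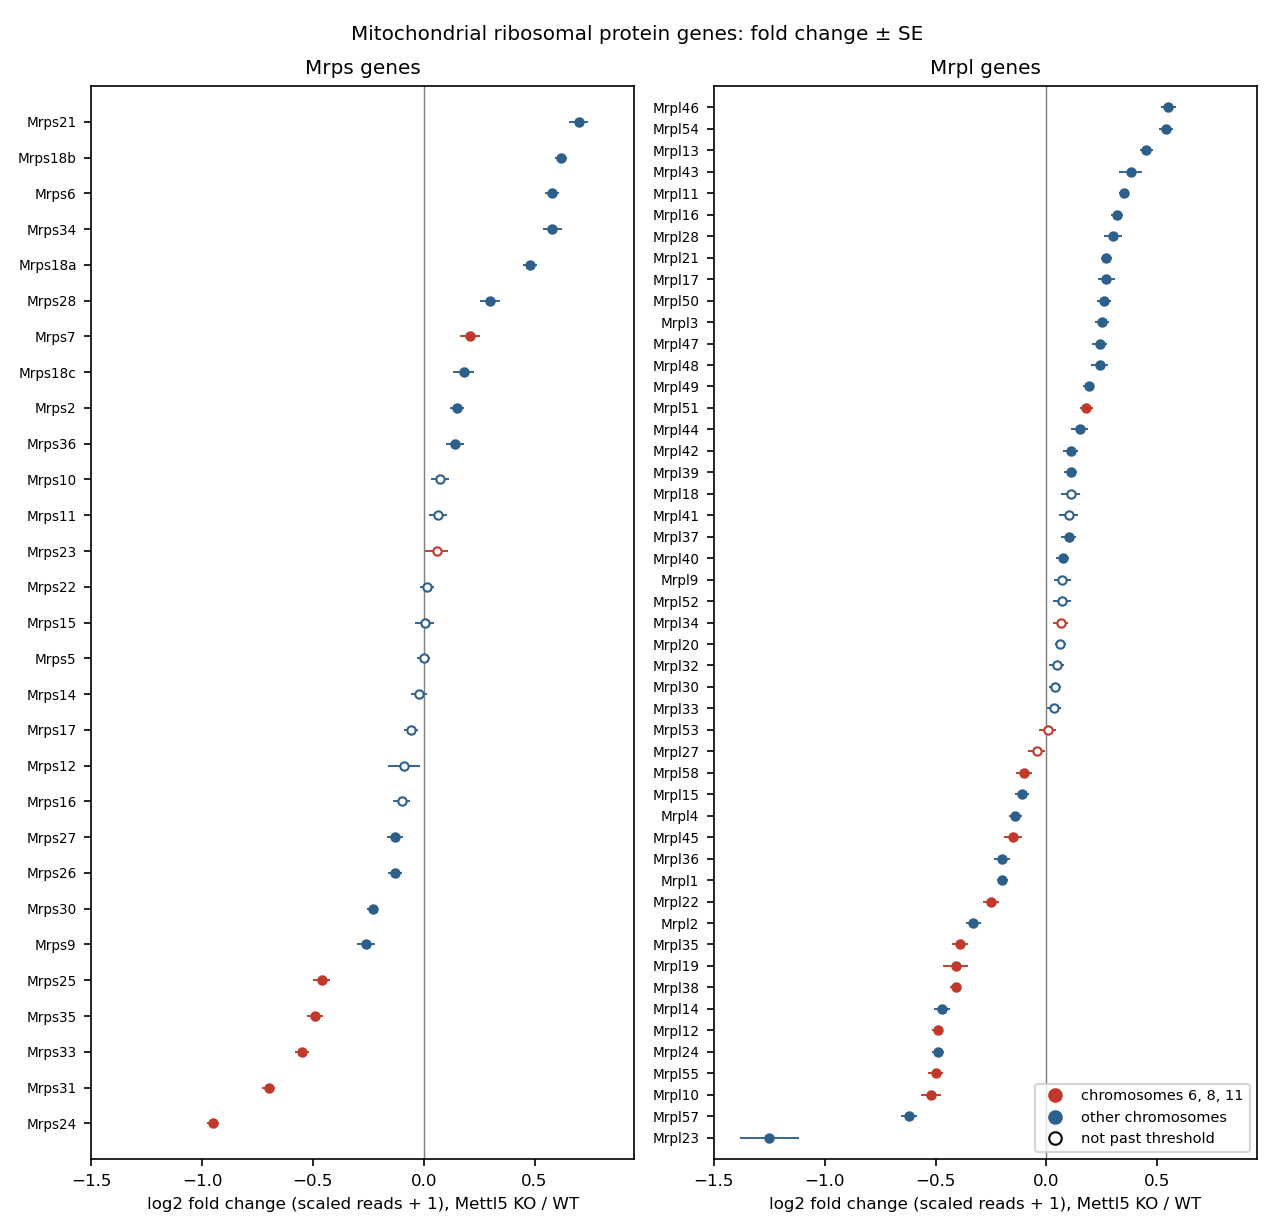
Log2 fold change of scaled reads + 1, KO over WT, with its standard error, for the 29 Mrps genes (left) and the 49 Mrpl genes (right), ordered by value. Filled points passed the threshold, open points did not, and red points are genes on chromosomes 6, 8 and 11. Values run from 0.70 for Mrps21 to -1.25 for Mrpl23, and red points make up most of the lower end.

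Small subunit genes had 10 higher, 9 lower and 10 not called (median 0.0041), and large subunit genes had 20 higher, 18 lower and 11 not called (median 0.064). Over all genes tested 33.6% were higher and 28.9% lower. Subunits go by gene symbol here, so Mrps18a and Mrps30 stand with the small subunit although their proteins sit in the large one. The difference between the subunits was not tested. Summed over the Mrps genes, the TPM-scale level was 2387, 2350 and 2350 in KO libraries and 2541, 2585 and 2505 in WT libraries. Over the Mrpl genes the sum was 4818, 4759 and 4759 in KO libraries and 5112, 5125 and 5067 in WT libraries. Each KO sum was below each WT sum for both subunits. These sums include the 20 genes on chromosomes 6, 8 and 11. There 14 were called lower and 2 higher in scaled reads, against 53.3% and 16.1% of all genes. Of the 58 genes elsewhere, 13 were lower and 28 higher, against 23.8% and 37.3%. Mrpl12 and Mrps24, both on chromosome 11, stood at 332 and 203 in WT and at 226 and 100 in KO cells. Sums without these chromosomes were not computed, so a lower sum is not shown for genes elsewhere. The ratio of the small to the large sum was 0.495, 0.494 and 0.494 in KO and 0.497, 0.504 and 0.494 in WT libraries, so the groups touched. Over all 78 genes the sum averaged 7140 ± 55.2 in KO and 7645 ± 69.2 in WT libraries (SD, n = 3 each). It made up 0.695% to 0.706% of the TPM-scale total of a KO library and 0.778% to 0.789% of a WT library. On the TPM column the median log2 fold change of the 78 genes was -0.031, with 23 higher and 30 lower. All genes had a median of -0.019 there, with 29.8% higher and 31.9% lower.

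**Figure D2:**
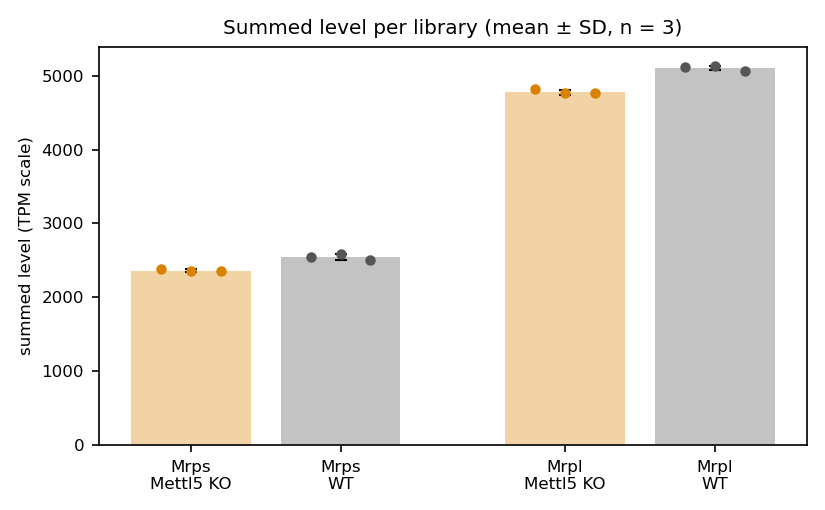
Summed TPM-scale level of the Mrps and of the Mrpl genes in each library (points), with the mean (bars from 0) and SD of 3 libraries. The KO libraries lie at 2350 to 2387 and 4759 to 4818, below the WT libraries at 2505 to 2585 and 5067 to 5125. The sums include the genes on chromosomes 6, 8 and 11.

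Levels of single genes spanned 6.29 to 301 on the TPM scale in KO and 15.8 to 335 in WT cells, with medians of 71.8 in KO and 83.1 in WT cells. The highest was 47.8 times the lowest in KO and 21.2 times in WT cells. Their order was much alike, with a Pearson r of 0.915 between the log2 levels of both group means over the 78 genes. Libraries of one genotype differed little, with a median coefficient of variation of 1.99% in KO and 2.65% in WT cells.

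The most abundant genes on the TPM scale were Mrpl15, Mrpl42, Mrpl12 and Mrpl20. Mrpl15, of a bacterial large subunit family, had 26492, 24364 and 24681 scaled reads in KO and 27095, 27013 and 27470 in WT libraries. The groups did not overlap, and the log2 fold change was -0.11 (adjusted p 0.0151 by limma). That call was lost without KO replicate 2 (-0.089, adjusted p 0.0594) or KO replicate 3 (-0.10, adjusted p 0.0658). Mrpl42, a mitochondria-specific large subunit gene, was at 301 ± 10.7 on the TPM scale in KO and 295 ± 3.27 in WT cells (SD, n = 3), and its log2 fold change in scaled reads was 0.11 (adjusted p 0.0193 by limma). Its call was lost without KO replicate 2 or 3 or WT replicate 1 or 2, with adjusted p values of 0.0564, 0.0872, 0.0549 and 0.0513, and its sign turned with equal totals (-0.05, adjusted p 0.196). Mrpl20, of a bacterial large subunit family, was at 236 ± 2.23 in KO and 240 ± 4.33 in WT cells on the TPM scale (SD, n = 3) and was not called (log2 fold change 0.062, adjusted p 0.0574 by limma). It was called lower with equal totals (-0.094, adjusted p 0.00951) and with values centred per chromosome (-0.17), and higher with a filter at a mean of 20 scaled reads (0.062, adjusted p 0.0454) or without KO replicate 1 (0.075, adjusted p 0.0496).

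At the lower end of the TPM scale were Mrpl23, Mrpl48, Mrpl1 and Mrps30. Mrpl48, a mitochondria-specific large subunit gene, had 937.1, 937.2 and 952.9 scaled reads in KO and 811.4, 804.7 and 775.8 in WT libraries, with no overlap (log2 fold change 0.24). Mrpl1, whose bacterial relative forms the flexible stalk beside the exit of used transfer RNA, had 5417, 5333 and 5383 in KO and 6238, 6249 and 6107 in WT libraries (log2 fold change -0.20). Both calls held without any single library, but that of Mrpl48 was lost with equal totals (0.085, adjusted p 0.0995) and with values centred per chromosome (0.035).

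The largest rise was that of Mrps21 (ENSMUSG00000054312, GRCm38 chromosome 3, 95862634 to 95871519, minus strand), of the bacterial S21 family of small subunit proteins. It had 2836, 2926 and 2979 scaled reads in KO and 1759, 1903 and 1725 in WT libraries. All KO libraries were above all WT libraries, and the level was 1.62 times that of WT (log2 fold change 0.70, SE 0.0427, adjusted p 6.06e-07 by limma). Its proximal promoter is the Mrps21 sequence printed above. On the TPM scale it averaged 170 ± 2.84 in KO and 113 ± 7.43 in WT cells (SD, n = 3).

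The 3 Mrps18 genes, mammalian copies of the bacterial S18 family that occupy different places in the ribosome, were all higher on the deposited scale, Mrps18c not under other scalings. Mrps18b had 6437, 6471 and 6409 scaled reads in KO and 4218, 4073 and 4263 in WT libraries (log2 fold change 0.62, SE 0.0275, adjusted p 7.05e-08 by limma). Mrps18a, whose protein sits in the large subunit despite its name, had 2692, 2598 and 2715 in KO and 1925, 1915 and 1887 in WT libraries (log2 fold change 0.48, adjusted p 9.6e-07 by limma). Neither gene had a KO library that reached down to a WT library. Mrps18c had 2201, 2114 and 1994 in KO and 1770, 1951 and 1837 in WT libraries, a narrower gap (log2 fold change 0.18, adjusted p 0.00905 by limma). The calls of Mrps18a and Mrps18b held under each of the 16 other settings named with the processing. That of Mrps18c was lost with equal totals (0.026) and on the TPM column (0.084), and its sign turned with values centred per chromosome (-0.027).

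Mrps6, of the family that neighbours S18 in bacterial ribosomes, had 2671, 2704 and 2666 scaled reads in KO and 1784, 1833 and 1752 in WT libraries (log2 fold change 0.58, SE 0.0314, adjusted p 2.58e-07 by limma). Mrps34, a mitochondria-specific protein that the small subunit needs for its stability, had 2735, 2666 and 2640 in KO and 1716, 1902 and 1769 in WT libraries (log2 fold change 0.58, adjusted p 1.99e-06 by limma). The groups of both genes were far apart relative to the spread within each. Mrps34 overlaps Nme3, which had 0.298 times its scaled reads in KO and 0.331 times in WT cells, and the split of reads between them is uncertain.

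Of the large subunit genes, Mrpl46, Mrpl54 and Mrpl13 rose most. Mrpl46, a mitochondria-specific protein, had 2970, 2856 and 2913 scaled reads in KO and 2040, 1921 and 2021 in WT libraries (log2 fold change 0.55, SE 0.0348, adjusted p 8.01e-07 by limma). Mrpl54, also mitochondria-specific, had 4129, 4186 and 4031 in KO and 2751, 2872 and 2879 in WT libraries (log2 fold change 0.54). Mrpl13, of a bacterial family that acts early in large subunit assembly in bacteria, had 3335, 3336 and 3331 in KO and 2383, 2462 and 2460 in WT libraries (log2 fold change 0.45). None of these genes overlapped between genotypes, and their calls held under all of those settings. In all, 11 of the 30 higher calls did. Besides the 8 largest rises these were Mrpl11, Mrpl16 and Mrpl3. The calls of Mrpl17, Mrpl21, Mrpl28, Mrpl43, Mrpl50 and Mrps28 were lost under only 1 of those settings, values centred per chromosome.

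The largest fall was that of Mrpl23 (ENSMUSG00000037772, GRCm38 chromosome 7, 142532686 to 142540747, plus strand), whose bacterial relative lines the exit of the peptide tunnel. It had 240.3, 173.3 and 201.7 scaled reads in KO and 470.8, 566.6 and 429.7 in WT libraries (log2 fold change -1.25, SE 0.133, adjusted p 2.66e-05 by limma). The groups did not overlap, but the value is uncertain, because the processed pseudogene Mrpl23-ps1 is identical to the Mrpl23 transcript over 540 bases. That copy was listed with 12.7 times the scaled reads of Mrpl23 in KO and 7.64 times in WT cells. With the reads of both summed, the log2 fold change was -0.59 (adjusted p 4.89e-07 by limma), from 2779, 2844 and 2816 scaled reads in KO and 4153, 4422 and 4103 in WT libraries. A fall was thus measured for the gene and its copy together, at a smaller size.

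Mrps24 (ENSMUSG00000020477, GRCm38 chromosome 11, 5703983 to 5715680, minus strand), the mitochondrial member of the bacterial S3 family at the entry of the messenger RNA channel, had 3298, 3254 and 3374 scaled reads in KO and 6383, 6483 and 6249 in WT libraries. Its level in the KO was 0.519 times that of WT, with no overlap (log2 fold change -0.95, SE 0.0284, adjusted p 5.91e-09 by limma). Its proximal promoter is the Mrps24 sequence printed above. Mrps24 overlaps Urgcp, which had 841 scaled reads in KO and 801 in WT cells, or 0.254 times the reads of Mrps24 in KO and 0.126 times in WT cells.

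Mrps31, a mitochondria-specific small subunit gene on chromosome 8, had 6731, 6575 and 6415 scaled reads in KO and 10664, 10919 and 10559 in WT libraries (log2 fold change -0.70, SE 0.0279, adjusted p 3.31e-08 by limma). Mrpl57, a very small mitochondria-specific protein, had 7615, 7834 and 7725 in KO and 11512, 12620 and 11606 in WT libraries (log2 fold change -0.62, adjusted p 4.82e-07 by limma). Mrpl57 is on chromosome 14, and its groups were as clearly apart as those of Mrps31. Mrps33 and Mrps35, mitochondria-specific small subunit genes on chromosome 6, fell by 0.55 and 0.49 on the log2 scale, to 112 ± 2.19 and 116 ± 4.11 on the TPM scale in KO cells, against 174 ± 5.40 and 172 ± 5.30 in WT cells (SD, n = 3). Mrpl55, a large subunit gene on chromosome 11, fell by 0.50. Of the 27 lower calls, 21 held under all 16 of those settings, with Mrpl15, Mrpl19, Mrpl22, Mrpl38, Mrpl45 and Mrpl58 as the exceptions.

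**Figure D3:**
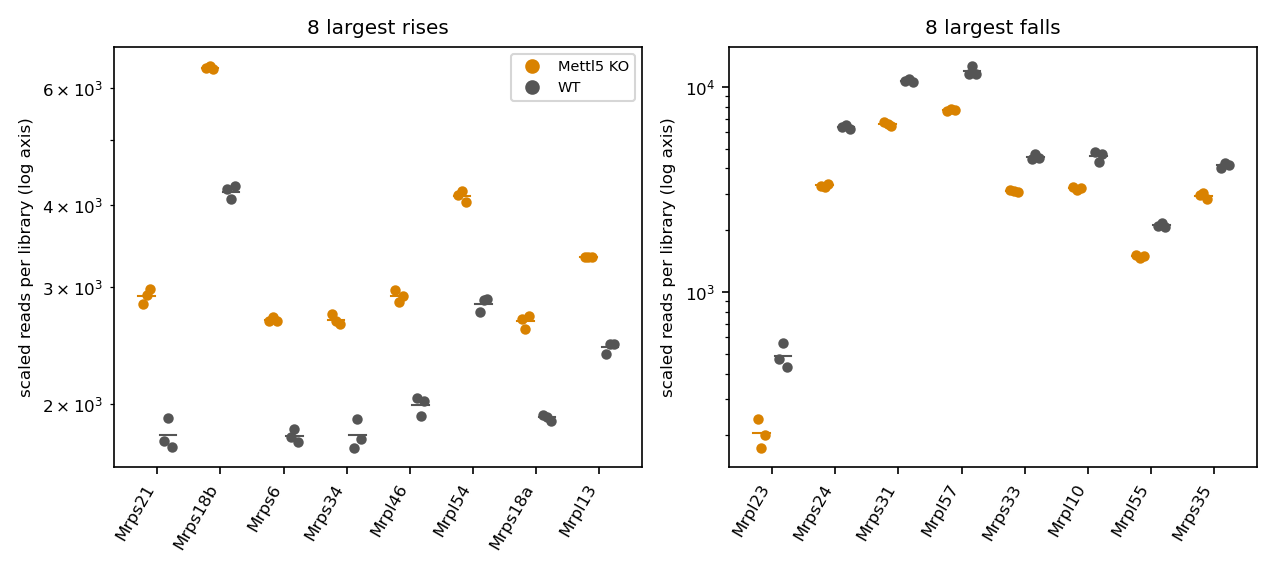
Scaled reads in each library (log axis) of the 8 genes with the largest rise (left) and the 8 with the largest fall (right), with KO points left of WT points and a line at each mean. The groups do not overlap for any of the 16 genes. Mrps21 lies at 2836 to 2979 in KO and 1725 to 1903 in WT, and Mrps24 at 3254 to 3374 in KO and 6249 to 6483 in WT.

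The genes of the stalk that recruits translation factors went both ways. Mrpl12, which forms the mobile stalk and in human cells also binds the mitochondrial RNA polymerase, had 11968, 11936 and 12218 scaled reads in KO and 17302, 16743 and 16806 in WT libraries (log2 fold change -0.49, SE 0.0248, adjusted p 1.62e-07 by limma). Mrpl10, which anchors the stalk, had 3259, 3136 and 3208 in KO and 4833, 4287 and 4682 in WT libraries (log2 fold change -0.52, adjusted p 5.7e-06 by limma). Both lie on chromosome 11, and neither overlapped between genotypes. Mrpl11, at the base of the stalk and encoded on chromosome 19, had 8747, 8773 and 8754 in KO and 6813, 6907 and 6883 in WT libraries, higher in the KO with no overlap (log2 fold change 0.35, SE 0.0231, adjusted p 9.99e-07 by limma). RNA of the stalk and of its base thus moved in opposite directions. The median of all genes tested was -0.41 on chromosome 11 and 0.086 on chromosome 19. With values centred per chromosome, Mrpl12, Mrpl10 and Mrpl11 kept their directions at smaller sizes (-0.12, -0.15 and 0.13). Whether the place in the stalk bears on the direction was not tested.

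Genes with other defined roles changed little. Mrps12, of the decoding centre, had 2257, 1950 and 1952 scaled reads in KO and 2281, 2299 and 1977 in WT libraries, with overlap and no call (log2 fold change -0.09, adjusted p 0.307 by limma), and was called lower with equal totals (-0.25, adjusted p 0.0166). Mrpl44, which has a ribonuclease III-like fold, had 2462, 2282 and 2380 in KO and 2085, 2175 and 2164 in WT libraries (log2 fold change 0.15, adjusted p 0.00681 by limma), which was not called with equal totals (-0.0078) and was called lower with values centred per chromosome (-0.15). Mrpl58, a peptidyl-tRNA hydrolase built into the large subunit, had a log2 fold change of -0.10 (adjusted p 0.029 by limma). Its call was lost without KO replicate 1, 2 or 3 or WT replicate 3, with adjusted p values of 0.0654, 0.0651, 0.0737 and 0.105. Mrpl45, which docks the ribosome on the inner membrane, had a log2 fold change of -0.15 (adjusted p 0.0101 by limma). With values centred per chromosome, Mrpl58 and Mrpl45 were called higher instead (0.27 and 0.22).

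Mrps30 and Mrpl37 encode related proteins that both sit in the large subunit. Mrps30 had 6365, 6356 and 6257 scaled reads in KO and 7484, 7412 and 7338 in WT libraries, lower in the KO with no overlap (log2 fold change -0.23, adjusted p 2.73e-05 by limma). Mrpl37 was higher by 0.10 on the log2 scale (adjusted p 0.028 by limma), and its call was lost without KO replicate 3 (adjusted p 0.111) or WT replicate 2 (adjusted p 0.0771) and its sign turned with equal totals (-0.052), and it was called lower with values centred per chromosome (-0.13). Mrps36, whose protein is also described as a subunit of the oxoglutarate dehydrogenase complex, had a log2 fold change of 0.14 (adjusted p 0.0172 by limma). Its call was lost without KO replicate 3 (adjusted p 0.064) or WT replicate 1 (adjusted p 0.0518), and its sign turned with equal totals (-0.019).

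The smallest differences were those of Mrps5, Mrps15, Mrpl53 and Mrps22. Mrps5, of a bacterial family near the decoding centre, had 6316, 6253 and 6327 scaled reads in KO and 6497, 6297 and 6119 in WT libraries. The WT values lie on both sides of the KO values, and the log2 fold change was -0.00089 (SE 0.0289, adjusted p 0.981 by limma). Mrps15, Mrpl53 and Mrps22 had log2 fold changes of 0.0041, 0.0049 and 0.015, with SEs of 0.0441, 0.0366 and 0.0331. With libraries rescaled to equal totals all 4 were called lower, by log2 fold changes of -0.16, -0.15, -0.15 and -0.14 (adjusted p 0.00157, 0.0107, 0.00602 and 0.0032). With values centred per chromosome Mrpl53 was called higher (0.27). That these differences were small thus depended on the scaling.

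The chromosome of a gene went along with its direction. Chromosomes 6, 8 and 11 were singled out because an earlier account of these data gave their genes as lower in the KO. Of the 20 mitochondrial ribosomal protein genes on them, 14 were lower, 2 higher and 4 not called, with a median of -0.40. Over all 4185 genes tested there, 53.3% were lower and 16.1% higher, with a median of -0.37. Of the 58 genes on other chromosomes, 28 were higher, 13 lower and 17 not called, with a median of 0.086. Over all genes tested on those chromosomes 37.3% were higher, 23.8% were lower and the median was 0.074. The medians thus lay close to those of all genes in the same places.

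Of the 8 largest falls, 6 were genes on chromosomes 6, 8 and 11, and none of the 8 largest rises was. The small subunit had 7 genes there, with 5 lower and 1 higher (median -0.49), and the large subunit 13, with 9 lower and 1 higher (median -0.25). The genes that were higher there were Mrps7 on chromosome 11, with 3965, 3830 and 3794 scaled reads in KO and 3426, 3108 and 3502 in WT libraries, and Mrpl51 on chromosome 6, with 6555, 6695 and 6771 in KO and 5766, 5903 and 6041 in WT libraries. Their log2 fold changes were 0.21 and 0.18 (adjusted p 0.00298 and 0.000431 by limma), and neither was called with equal totals (0.053 and 0.021). What makes the genes of these chromosomes lower was not tested.

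On chromosome 19 all 5 genes, Mrpl11, Mrpl16, Mrpl21, Mrpl43 and Mrpl49, were higher, by a median of 0.32, while the median of all genes tested on that chromosome was 0.086 and 41.2% of them were higher. With values centred per chromosome the calls of Mrpl21, Mrpl43 and Mrpl49 were lost (0.053, 0.16 and -0.03), and Mrpl49 was not called with equal totals either (0.033). That centring used medians of log2 levels. With fold changes taken relative to the chromosome, a setting chosen after seeing the data, the calls of Mrpl21, Mrpl43 and Mrpl49 held. Chromosome 17 held 8 of the genes, of which 4 rose, among them Mrps18b, Mrps34 and Mrps18a, and 2 fell. Of all genes tested on chromosome 17, 36.1% were higher and 24.5% lower. The falls there were in Mrpl14 (log2 fold change -0.47, adjusted p 2.87e-06 by limma), with 1236, 1222 and 1215 scaled reads in KO and 1698, 1643 and 1741 in WT libraries, and in Mrpl2 (-0.33). Together with Mrpl24 on chromosome 3 (-0.49), Mrpl57 and Mrpl23, Mrpl14 had one of the 4 largest falls away from chromosomes 6, 8 and 11.

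**Figure D4:**
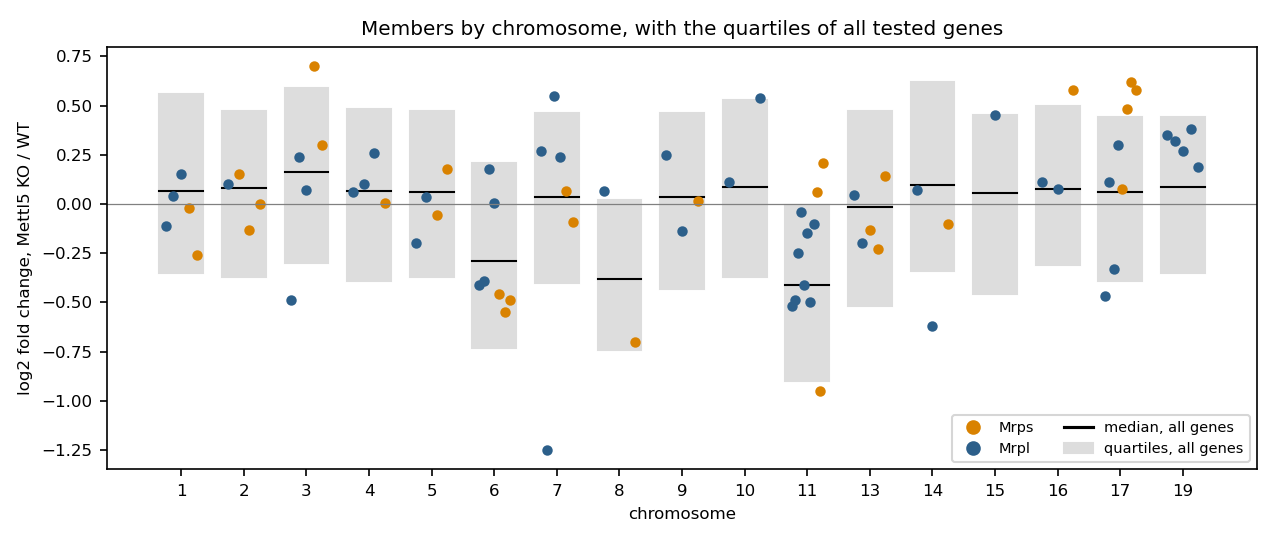
Log2 fold change, KO over WT, of each Mrps gene (orange) and Mrpl gene (blue) by chromosome, over the median (line) and quartiles (grey box) of all genes tested there. Members on chromosomes 6 and 11 lie mostly below 0, as do the medians of all genes there (-0.29 and -0.41), and all 5 members on chromosome 19 lie above 0.

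By ancestry, the 48 genes of bacterial families had 16 higher, 16 lower and 16 not called (median 0.037), and the 30 mitochondria-specific genes had 14 higher, 11 lower and 5 not called (median 0.071). Over all genes tested the shares were 33.6% higher and 28.9% lower. In the next counts subunits go by gene symbol, so Mrps18a, called higher, and Mrps30, called lower, stand with the small subunit although their proteins sit in the large one. Small subunit genes had 8 of 18 higher and 2 lower among bacterial families, and 2 of 11 higher and 7 lower among mitochondria-specific genes. Large subunit genes had 8 of 30 higher and 14 lower among bacterial families, and 12 of 19 higher and 4 lower among mitochondria-specific genes. With equal totals the counts were 5 higher and 8 lower in the first of these 4 classes, 1 and 8 in the second, 7 and 20 in the third and 4 and 6 in the last. Over all genes the shares were then 26.1% higher and 37.8% lower. These classes share genes with the chromosome classes above, and no difference between them was tested.

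Genes that start back to back moved together in some pairs and apart in others. Of the 33 genes with such a neighbour, both were called in the same direction in 6 cases and in opposite directions in 6, while 1 of both was called in 19 cases and neither in 2. The pair of Mrps11 and Mrpl46 counts once for each gene. Of all protein-coding genes tested, 40.4% were higher and 31.0% lower, and the split over all back-to-back pairs was not computed. With equal totals the counts were 9 in the same direction and 3 in opposite directions, so the balance depended on the scaling. Under that rescaling 26.1% of all genes tested were higher and 37.8% lower. Whether pairs moved together more or less often than other genes was not tested. Mrpl46 and Mrps11, whose shared stretch is printed first above, had log2 fold changes of 0.55 and 0.064, and Mrps11 was not called (adjusted p 0.21 by limma). Mrps11 had 2382, 2587 and 2493 scaled reads in KO and 2399, 2287 and 2453 in WT libraries, which overlap. Mrpl57 fell by 0.62, while Ska3, a spindle gene on the other side of the second stretch, had a log2 fold change of -0.091 and was not called, though with equal totals it was called lower too (-0.25, adjusted p 0.00114). Mrpl50 and Zfp189 both rose, by 0.26 and 0.33, and both calls were lost with values centred per chromosome (0.029 and 0.10). Both held with fold changes taken relative to the chromosome. Mrps27, which fell by 0.13, stood beside Ptcd2, at -0.005 and not called, and at -0.16 and called lower with equal totals (adjusted p 0.00126).

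Other pairs that rose together were Mrps18b with Ppp1r10 (0.62 and 0.56), Mrps34 with Eme2 (0.58 and 1.20), Mrpl48 with Rab6a (0.24 and 0.61), Mrpl13 with Mtbp (0.45 and 0.19) and Mrpl49 with Fau (0.19 and 0.56), where Fau encodes a cytosolic ribosomal protein. The call of Mtbp was lost without KO replicate 2 or WT replicate 1 or 2 (adjusted p 0.0797, 0.0797 and 0.067) and with equal totals (0.034), as were those of Mrpl48 (0.085) and Mrpl49 (0.033) under that rescaling. Pairs that moved apart included Mrpl14 with Tmem63b (-0.47 and 0.62) and Mrpl51 with the condensin gene Ncapd2 (0.18 and -0.66). Mrps7 with Gga3 (0.21 and -0.46), Mrpl36 with Ndufs6, a respiratory complex I gene (-0.20 and 0.23; Ndufs6 was not called with equal totals, at 0.074), Mrps18c with Helq (0.18 and -0.19) and Mrpl44 with Wdfy1 (0.15 and -0.19) also moved apart. Of these, Mrpl51, Mrps7, Mrps18c and Mrpl44 were not called with equal totals. Many of these neighbours overlap the Mrp gene in their annotated first bases, and no source used here gives the strand setting of the authors' counting.

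**Figure D5:**
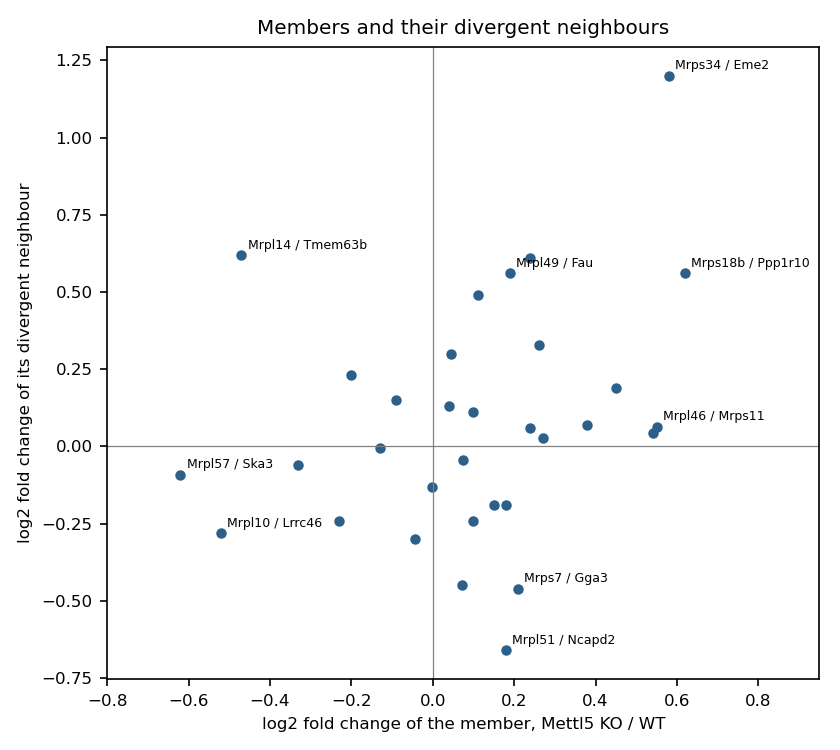
Log2 fold change of each mitochondrial ribosomal protein gene (x axis) against that of the gene starting back to back with it (y axis), KO over WT. The pair of Mrpl46 and Mrps11, both members, is drawn once, and pairs lie in all quadrants, from Mrps34 with Eme2 (0.58 and 1.20) to Mrpl14 with Tmem63b (-0.47 and 0.62).

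Copies and overlapping genes could take reads from 24 of the 78 genes (at least 95% identity over 220 bases or more). In 7 cases the copy or overlapping gene was in the table, and in 5 it held more than 10% of the member's reads. Besides Mrpl23, Mrps24 and Mrps34, these were Mrpl48 and Mrps10. Summed with its pseudogene, Mrpl48 had a log2 fold change of 0.29 (adjusted p 0.000189 by limma). Mrps10, of a bacterial small subunit family, was not called alone (log2 fold change 0.075) and was called with its copy (0.11, adjusted p 0.0376 by limma). Of the 4 genes summed with a pseudogene, Mrpl23, Mrpl48 and Mrps18c were called alone and stayed called.

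Around the Mrp genes, the other lists of the same machinery also went both ways, except for the first. Over all genes tested, 33.6% were higher and 28.9% lower. Of 5 mitochondrial ribosomal proteins without an Mrp symbol, 4 were lower and none higher (median -0.21). Gadd45gip1, a large subunit protein at the tunnel exit encoded on chromosome 8, fell by 0.62 on the log2 scale (adjusted p 6.35e-07 by limma), at 24.9 ± 0.643 on the TPM scale in KO and 39.7 ± 1.76 in WT cells (SD, n = 3). Dap3, a GTP-binding small subunit protein, fell by 0.23, the pentatricopeptide protein gene Ptcd3 by 0.21 and Aurkaip1 by 0.10, while Chchd1 was at 0.0037 and not called. The 3 genes away from chromosomes 6, 8 and 11 had 2 lower (median -0.10). With equal totals Chchd1 was called lower as well (-0.15, adjusted p 0.00703). With values centred per chromosome Ptcd3, on chromosome 6, was at 0.058 and no longer called.

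Of 32 genes for assembly of the mitochondrial ribosome, 18 were lower, 10 higher and 4 not called (median -0.18), against 28.9% lower and 33.6% higher over all genes tested. Away from chromosomes 6, 8 and 11 the counts were 9 lower, 10 higher and 4 not called of 23, with a median of -0.015. There 23.8% of all genes tested were lower and 37.3% higher. Grsf1, an RNA-binding protein of mitochondrial RNA granules, was at 79.4 ± 3.73 in KO and 38.1 ± 0.499 in WT cells on the TPM scale (SD, n = 3; log2 fold change 1.13, adjusted p 1.83e-08 by limma). C1qbp, a matrix protein gene on chromosome 11, fell by 0.41, and was at -0.046 and not called with values centred per chromosome. Of 17 mitochondrial translation factors, 8 were lower and 4 higher (median -0.068), and away from chromosomes 6, 8 and 11 these were 6 and 3 of 14 (-0.055). Mtif2, which initiates translation, fell by 0.58, and Taco1, which activates translation of the cytochrome oxidase subunit 1 messenger, by 0.65. Both are on chromosome 11, while Gfm2, the recycling factor on chromosome 13, fell by 0.24.

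Of 20 mitochondrial aminoacyl-tRNA synthetases, 9 were lower and 6 higher (median -0.061), with 8 lower and 6 higher of 19 away from chromosomes 6, 8 and 11 (-0.029). For all genes tested the shares were 28.9% lower and 33.6% higher, and 23.8% and 37.3% away from those chromosomes. The synthetases are taken first. Their fold changes ran from Cars2 (-0.78), on chromosome 8, to Wars2 (1.41), which was at only 4.86 ± 0.567 in KO and 1.89 ± 0.111 in WT cells on the TPM scale (SD, n = 3). Of 15 genes of mitochondrial transcription and RNA processing, 6 were lower and 3 higher (median -0.017), but away from chromosomes 6, 8 and 11 only 2 of 10 were lower and 3 higher (0.021). Among them Ssbp1, the single-strand DNA-binding protein on chromosome 6, fell by 0.59 and the packaging and transcription factor gene Tfam by 0.31. The polymerase gene Polrmt was not called (-0.067), and was called lower with equal totals (-0.22, adjusted p 0.0167). With equal totals the counts were 21 lower and 8 higher for assembly, 13 and 2 for translation factors, 11 and 3 for the synthetases and 11 and 1 for transcription and RNA processing. Over all genes tested, 37.8% were then lower and 26.1% higher.

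The ribosomal RNAs that these proteins bind were also in the table, although polyA selection samples them incompletely. On the TPM scale, the small subunit RNA mt-Rnr1 stood at 9140, 9850 and 9580 in KO and 13900, 15300 and 14200 in WT libraries, lower in the KO with no overlap (log2 fold change -0.54, adjusted p 3.1e-06 by limma). The large subunit RNA, mt-Rnr2, was at 6760, 7110 and 7010 in KO and 6910, 7400 and 6980 in WT libraries, which overlap (log2 fold change 0.029, adjusted p 0.502 by limma). With equal totals mt-Rnr2 was called lower (-0.13, adjusted p 0.00713), and with quantile normalization it was called higher (0.28, adjusted p 3.7e-06). The difference between the changes of both ribosomal RNAs, and between these and the protein genes, was not tested.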

How the data were processed

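PolyA RNA of 6 libraries was selected on oligo dT beads, fragmented to 100 nt and made into stranded libraries from 0.1 µg RNA, per the labels' protocols. The submitters' processing notes name kallisto, sleuth and the genome build mm10. No source used here gives versions, the transcript annotation or the strand setting. The table held 2 signal columns per gene and library: scaled reads, which are not whole numbers, and a TPM column, named as such per the file headers. As deposited, the scaled reads were a signal that summed to 51499598 to 51829716 in KO and 46076612 to 46541352 in WT libraries. The deposited TPM signal summed to 1019930 to 1022473 in KO and 969838 to 978167 in WT libraries, so it had been rescaled and is called the TPM scale. Because the scaling of these columns differs, a small change can have another sign in each. Depth was estimated from the step between low values of each library: between values of 0.5 and 40, 29.9% to 31.8% fell within 0.02 of a whole multiple of the step, against a median of 2.65% to 2.79% over the steps tried. So few values came out whole that no count test was run.

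Groups came from the sample titles. Gene names, chromosomes and positions came from GENCODE M21 (GRCm38), which held 23846 of 24191 identifiers, and 345 had no match. For 672 genes, Mrps10 and Mrps23 among them, another gene had the same values in every library. A limma model (3.58.1, under R 4.3.3) with trended variance was fitted to log2(scaled reads + 1) for all 24183 genes whose mean reached 1 scaled read, with Benjamini-Hochberg adjustment over all of them and a threshold of 0.05. Fold changes are on that scale, KO over WT, and understate the change of low genes. Fits were tested on simulated data. Copies were found with BLAST 2.17.0, and the length limit of 220 bases was chosen after seeing hits of shared repeats. Promoter and intergenic sequences came from RefSeq GRCm38.p6. Python 3.11.15, pandas 2.3.3, numpy 2.4.6 and matplotlib 3.10.9 were used.

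Members, gene lists and chromosomes were chosen with earlier results of these data known. Named with values were the 8 largest changes in each direction among called genes whose groups do not overlap, the 4 highest and 4 lowest levels, the 4 smallest changes, and 13 genes with a defined role. Mrp genes and neighbours outside these classes were named after their values were seen. Alternatives were other scalings, filters, pseudocounts, the TPM column, centring by chromosome, a replicate block and leaving out each library, 16 settings in all.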

Additional observations from a re-analysis of the deposited data

How the results depend on the processing

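With libraries rescaled to equal totals, 17 of the 78 genes were higher and 42 lower (median -0.10), against 26.1% and 37.8% of all genes. By subunit, 6 small subunit genes were higher and 16 lower (-0.15), and 11 large subunit genes were higher (-0.092). On chromosomes 6, 8 and 11 there were 0 higher (limma, median -0.56), and elsewhere 17 higher and 25 lower (-0.07). With quantile normalization 19 were higher and 39 lower (median -0.09), against 28% and 33.7% of all genes. By subunit, 6 small subunit genes were higher and 16 lower (-0.13), and 13 large subunit genes were higher (-0.069). On chromosomes 6, 8 and 11 there were 0 higher (-0.54), and elsewhere 23 lower (-0.062). On the TPM column the medians were -0.031 over all, -0.061 and -0.018 in the small and large subunit, -0.47 on chromosomes 6, 8 and 11 and 0.013 elsewhere. With that column rescaled to equal totals the medians were -0.10, -0.13, -0.086, -0.53 and -0.054 in the same order. There 20 genes were higher and 39 lower, against 26.5% and 35.9% of all genes. Among them 6 small subunit genes were higher and 15 lower, 0 were higher on chromosomes 6, 8 and 11 and 22 were lower elsewhere. With log2 levels centred per chromosome, which moved the median of all genes to -0.10, 19 genes were higher and 38 lower (median -0.12). Of all genes 27.1% were then higher and 33.9% lower. By subunit, 17 small subunit genes were lower (-0.15) and 12 large subunit genes higher (-0.076). On chromosomes 6, 8 and 11 the counts were 8 higher and 9 lower (-0.083), and elsewhere 11 higher and 29 lower (-0.12). Under that centring 6 calls turned: Mrpl37 (-0.13), Mrpl39 (-0.20), Mrpl40 (-0.24), Mrpl44 (-0.15), Mrpl45 (0.22) and Mrpl58 (0.27). Mrpl40 also turned with equal totals (-0.082). The cause of these shifts was not tested beyond the scaling itself.

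Fold changes taken relative to the chromosome, and copies summed with their parent genes, were chosen after seeing the data. Relative to the chromosome, 28 genes were higher and 28 lower (median 0.0023), against 31.7% and 29% of all genes. The medians were -0.083 in the small subunit, 0.017 in the large subunit and 0.0061 away from chromosomes 6, 8 and 11. On these chromosomes 9 were higher and 9 lower (-0.057), and Mrpl22 (0.14), Mrpl45 (0.25) and Mrpl58 (0.29) turned.

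Without each library in turn, 26 to 31 genes were higher and 25 to 27 lower, with a median of 0.034 to 0.052. Of all genes 31.2% to 32.9% were then higher and 26.3% to 27.4% lower. The median ran from -0.0029 to 0.025 in the small subunit, from 0.052 to 0.068 in the large subunit, from -0.41 to -0.37 on chromosomes 6, 8 and 11 and from 0.083 to 0.092 elsewhere. Other filters and pseudocounts left these counts within 1.5 times. Samples with the same replicate number did not deviate together (correlations of -0.00943, 0.0383 and 0.0443), so the numbers pair nothing. With the replicate block 29 genes were higher and 28 lower (median 0.052), against 33.8% and 28.6% of all genes. SEs of the 78 fold changes were 0.0231 to 0.133, the largest for the gene with the fewest reads, Mrpl23.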
